A study of Mus musculus with 111 samples.

Results

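The comparison described here is that of striatal microglia from R6/2 mice with striatal microglia from wild-type (WT) littermates at 6 weeks of age, an early age in this fast model of Huntington's disease. The R6/2 transgene holds exon 1 of human huntingtin with an expanded CAG repeat under the human promoter of that gene. The samples were chosen by their titles, genotype, age and sorted fraction, which gave 5 R6/2 and 5 WT samples, 10 of the 111 samples of the series. Striata were pooled by litter and genotype, dissociated and sorted by flow cytometry, and microglia were the cells positive for CD11b, the surface integrin of myeloid cells, and negative for GLT1, the glutamate transporter of astrocytes. A sample is therefore a pool of an unstated number of mice, and the p-values measure the spread between pools. The other groups used were R6/2 microglia (6 samples) and WT microglia (5 samples) at 12 weeks, R6/2 and WT astrocytes (GLT1-positive, CD11b-negative, 5 and 5) and the negative fraction with neither marker (5 and 5) at 6 weeks, and microglia of zQ175 mice, a knock-in model with the expanded repeat placed in mouse Htt, and of their WT littermates at 6 and 12 months (4 samples in each group). All 18194 genes that had a probe set of their own on the array were considered, each through its brightest probe set, and 11958 of them lay above the level filter and were tested.

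Type I interferons are secreted signals that cells release on sensing viral or misplaced nucleic acid. They bind the receptor pair Ifnar1 and Ifnar2, whose kinases Jak1 and Tyk2 activate STAT proteins. Stat2 then joins Irf9 on a DNA element made of a pair of GAAA blocks with any pair of bases between them, found near the start of many interferon-stimulated genes, and the products of these genes block viral replication, degrade RNA or tune the response itself. Microglia, the resident macrophages of the brain, carry this pathway as well as a homeostatic programme (Tmem119, Csf1r and others) and, in several models of neurodegeneration, a disease-associated programme (Cst7, Clec7a, Apoe and others).

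The genes that rose in R6/2 microglia are described below, and the stretches around this element are shown for 7 of them because the element was common among their promoters. The windows come from RefSeq promoter sequence of the build GRCm38.p6 (250 bases before to 50 after a gene's start), are written 5′ to 3′ on the gene's strand, and have each match of GAAA, any 2 bases, GAAA that ends before the start in capitals, or its complement (TTTC, any 2 bases, TTTC) where the match lies on the other strand. Overlapping matches are merged in the capitals.
Ifit1, chr19:34640765-34640833, + strand: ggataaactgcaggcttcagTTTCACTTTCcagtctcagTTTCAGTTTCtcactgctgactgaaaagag
Ifit3, chr19:34583353-34583436, + strand: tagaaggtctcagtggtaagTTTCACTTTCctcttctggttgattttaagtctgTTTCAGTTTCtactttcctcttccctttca
Oas1a, chr5:120907526-120907565, - strand: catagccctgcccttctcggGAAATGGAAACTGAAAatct
Irgm1, chr11:48871421-48871470, - strand: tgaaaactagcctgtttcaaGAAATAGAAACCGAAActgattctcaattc
Ddx60, chr8:61928014-61928086, + strand: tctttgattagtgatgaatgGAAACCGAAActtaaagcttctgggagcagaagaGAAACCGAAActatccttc
Ifi213, chr1:173599316-173599365, - strand: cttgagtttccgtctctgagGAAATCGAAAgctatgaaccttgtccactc
Rsad2, chr12:26456543-26456592, - strand: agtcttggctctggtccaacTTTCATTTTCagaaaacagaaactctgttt
Of the 46 genes called higher, 33 had a promoter in the table, and 13 of these (39.4%) held this motif on either strand, against 1079 of all 27025 genes of the table (3.99%). The other motif searched, TTCNNNGAA, the palindrome bound by STAT dimers, was held by 4 of the 33 (12.1%) and by 9.55% of all genes. A match describes the letters in these windows and is not a measured binding site.

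The sort and the labels were checked on the values, which are log2 array signals throughout. Itgam, the gene of CD11b, averaged 9.11 ± 0.12 in R6/2 microglia and 9.21 ± 0.20 in WT microglia (SD, n = 5 each), against 2.96 to 3.23 in the group means of the other fractions at 6 weeks. Slc1a2, the gene of GLT1, averaged 9.60 ± 0.45 in R6/2 and 10.21 ± 0.18 in WT microglia, against 13.53 and 13.60 in R6/2 and WT astrocytes. In the negative fraction, also without GLT1 by its sort, it averaged 11.09 in R6/2 and 11.17 in WT samples. Microglia at 12 weeks were lower in Slc1a2, at 7.45 in R6/2 and 8.19 in WT samples. Htt averaged 9.27 ± 0.18 in R6/2 and 9.35 ± 0.13 in WT microglia. Its probe set measures the mouse gene, so it does not check the human transgene. Arrays of a group correlated at 0.987 to 0.992 over genes. Xist, expressed from the inactive X chromosome of female cells, lay at 5.46 in WT sample 3 and at 11.77 to 12.50 in the other 9 samples. The sex of the mice is not given in the labels.

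In the fit of microglia alone, most genes called at 6 weeks belonged to the interferon response. Of the 11958 genes tested, 46 (0.385%) rose in R6/2 microglia at an adjusted p below 0.05 (limma, Benjamini-Hochberg) and 3 (0.0251%) fell. Of the 46, 36 were on at least 1 of 4 lists chosen with earlier results of these data known (interferon-stimulated genes, interferon receptors and signalling, nucleic acid sensors, class I antigen presentation). The folds ran from 1.29 to 5.35, with a median log2 fold change of 1.20, and 28 of the 46 were beyond 2-fold. The median over all genes tested was -0.05. In 43 of the 46 the groups did not overlap, every R6/2 sample lying above every WT sample, as in 110 (0.920%) of all genes tested. Every R6/2 sample lay below every WT sample in 235 (1.97%) of all genes tested, 2 of them called. In a fit that also held astrocytes and the negative fraction, described with the lower genes, 155 genes were called in microglia, 52 higher and 103 lower (0.834%), and 18 of the 42 interferon-stimulated genes tested there were called higher. Without an adjustment, 1104 genes had a p below 0.05.

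The list of interferon-stimulated genes, chosen with earlier results of these data known, showed the width of the response. Of its 50 tested members 29 rose, none fell, and 49 had a positive log2 fold change (median 0.71). The mean level of the list was 9.43, 9.52, 9.70, 9.78 and 9.55 in the 5 R6/2 samples and 8.61, 8.71, 8.65, 8.70 and 8.63 in the 5 WT samples. The R6/2 samples differed more among themselves than the WT samples did, and the groups did not overlap. R6/2 sample 9 was the highest of its group in 32 of the 46 called genes and R6/2 sample 6 the lowest in 26. Without sample 9, 42 genes were called higher.

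The IFIT genes, whose products bind foreign RNA ends and block their translation, were among the most changed. Ifit2 measured 9.69, 10.03, 9.99, 10.24 and 9.71 in R6/2 microglia and 7.25, 7.79, 7.75, 7.76 and 7.78 in WT microglia. WT sample 1 lay below the other 4 WT samples, and every R6/2 sample lay above all of them. Its log2 fold change was 2.27 ± 0.15 (SE), with an adjusted p of 7.9e-09. Ifit1 measured 8.46, 8.63, 8.80, 9.12 and 9.28 in R6/2 and 6.37, 6.81, 6.93, 6.06 and 6.92 in WT microglia. It rose by 2.24 ± 0.18. Ifit3, the partner of Ifit1, rose by 2.21 ± 0.13, with 10.67 to 11.34 in R6/2 and 8.61 to 8.83 in WT microglia, and the WT values lay close together.

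Active oligoadenylate synthetases sense viral RNA and activate RNase L, and several genes of this family rose. Oasl2 had the largest change of all genes tested. It measured 7.94, 8.44, 8.58, 8.78 and 8.18 in R6/2 microglia and 5.94, 5.74, 6.15, 6.23 and 5.75 in WT microglia, a log2 fold change of 2.42 ± 0.22 and an adjusted p of 8.39e-07. Oasl2 was thus close to the level filter of 5.43 in WT microglia and well above it in every R6/2 sample. Oas1a rose by 1.80 ± 0.14, averaging 10.35 ± 0.27 in R6/2 and 8.55 ± 0.13 in WT microglia (SD, n = 5 each). Oas2 rose by 1.83 ± 0.27 and varied more, with 7.38 to 8.64 in R6/2 and 5.74 to 6.47 in WT microglia. Oasl1 rose by 1.23 ± 0.23, while Oas1b (0.64) and Oas3 (0.12) did not pass the test.

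A gene that restrains the response rose with its effectors. Usp18, the protease that removes ISG15 from proteins and dampens receptor signalling, measured 10.18, 10.58, 10.50, 10.69 and 10.61 in R6/2 microglia and 7.77, 8.63, 8.45, 8.19 and 8.23 in WT microglia. Its lowest R6/2 sample was above its highest WT sample by more than the range of either group. The log2 fold change was 2.26 ± 0.15, with an adjusted p of 7.31e-09. Rtp4, an interferon-induced member of the receptor transporter protein family, had the smallest adjusted p (1.6e-09). It measured 10.75, 10.97, 10.89, 11.40 and 10.98 in R6/2 and 8.45, 8.56, 9.08, 8.82 and 8.75 in WT microglia, and rose by 2.27 ± 0.13. Ifi27l2a, an interferon-induced gene of high level, rose by 2.04 ± 0.19 to 11.55 ± 0.33 in R6/2 microglia, against 9.51 ± 0.29 in WT microglia (SD, n = 5 each).

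The remaining effectors belonged to several families. Mx1, a dynamin-like antiviral GTPase, rose by 1.62 ± 0.14 (10.18 ± 0.25 in R6/2 and 8.56 ± 0.22 in WT microglia). The interferon-inducible GTPases Gbp6 and Irgm1 rose by 1.69 ± 0.24 and 0.60 ± 0.11. Rsad2, or viperin, an enzyme that makes a chain-terminating nucleotide, rose by 1.47 ± 0.21, and Cmpk2, the kinase gene beside it, by 1.28 ± 0.26. Another probe set of Cmpk2, brighter in microglia at 6 weeks (mean 6.23 against 5.65), differed by only 0.12. The call of Cmpk2 was lost in 8 of the 23 other settings that tested it, the mean of its probe sets among them. Eif2ak2, the kinase PKR that halts translation on sensing viral RNA, rose by 0.72 ± 0.13. Of the PYHIN genes of chromosome 1, which encode DNA-binding proteins, Ifi213 rose by 2.36 ± 0.27, Ifi204 by 1.95 ± 0.16 and Ifi209 by 1.60 ± 0.23. Ifi213 measured 6.73, 7.14, 7.06, 7.92 and 6.74 in R6/2 and 4.51, 4.59, 4.75, 4.51 and 5.41 in WT microglia, so that 4 WT samples were close together and the fifth stood above them. Every WT value of Ifi213 lay under the level filter, which was applied to the mean level over arrays and not to WT samples alone. PYHIN, Oas, Slfn and histone genes have near-identical neighbours, and how far a probe set read such a copy was not tested.

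**Figure D1:**
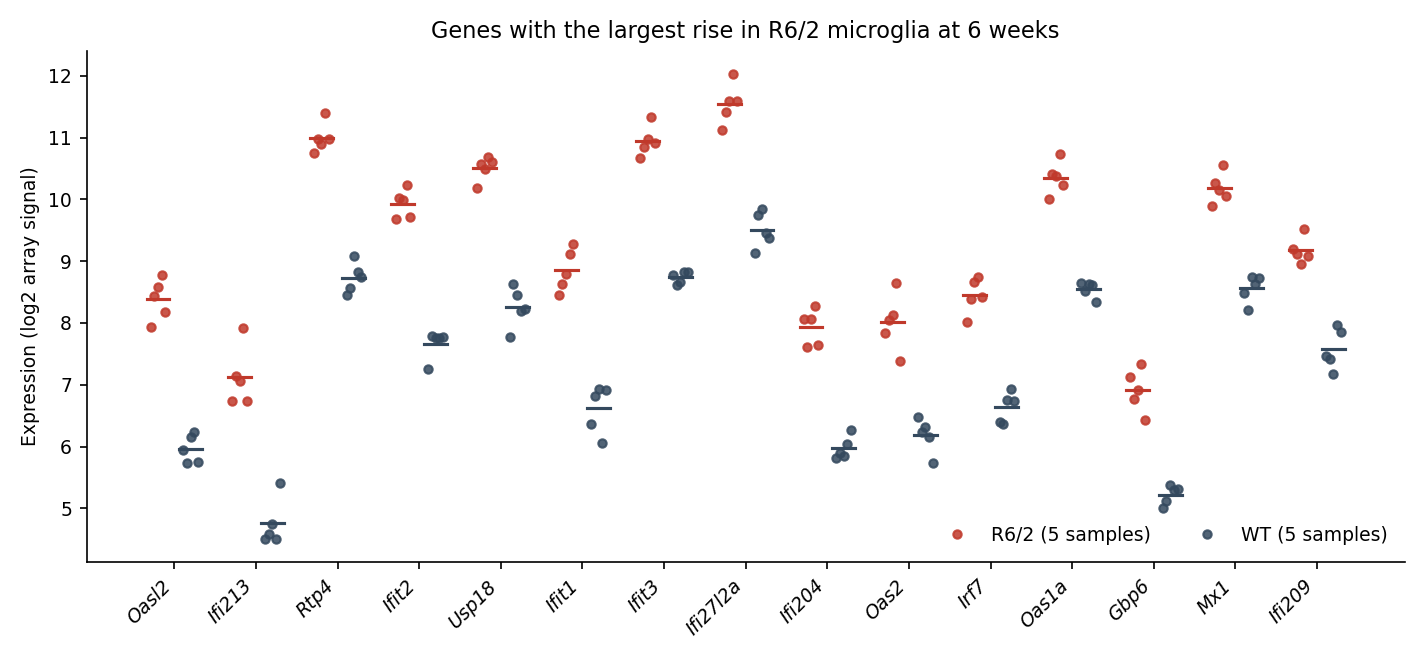
Log2 array signal of the 15 genes with the largest rise, one point per sample (5 R6/2 in red at the left of each pair, 5 WT in dark blue at the right), with bars at the group means. In each of the 15 genes every R6/2 sample lies above every WT sample, and Oasl2 shows the largest difference of means (2.42).

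The called genes covered a wide range of WT array signal. The 28 genes beyond 2-fold had WT means between 4.75 and 9.96 (median 7.09), and the 18 within 2-fold between 7.26 and 11.88 (median 9.45). Among the genes beyond 2-fold, Cmpk2, Gbp6, Ifi213, Oasl1 and Slfn5 had a WT mean under the level filter. Their folds rest in part on that dim WT signal, so the size of these folds is less certain. Signals of different probe sets are not levels on 1 scale, so this describes the arrays and does not order the genes by abundance. Ifi35 measured 12.25, 12.09, 12.24, 12.32 and 12.36 in R6/2 and 11.89, 11.84, 11.97, 11.80 and 11.89 in WT microglia, and its change of 0.37 ± 0.07 was the smallest that was called. Trim30a rose by 0.47 ± 0.07, with 12.17 to 12.28 in R6/2 and 11.62 to 11.88 in WT microglia. Of the members with a bright probe set that were not called, Ifi27 differed by 0.22 (12.03 in R6/2, 11.81 in WT) and Dtx3l by 0.12 (11.97 in R6/2, 11.84 in WT). Ifitm3, a membrane protein that blocks viral entry, differed by 0.77 ± 0.18 at an adjusted p of 0.0668. Cxcl10, an interferon-induced chemokine, was the only member with a negative value (-0.32 ± 0.24), with 9.63 to 10.45 in R6/2 and 10.20 to 10.72 in WT microglia, so that the groups overlapped.

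**Figure D2:**
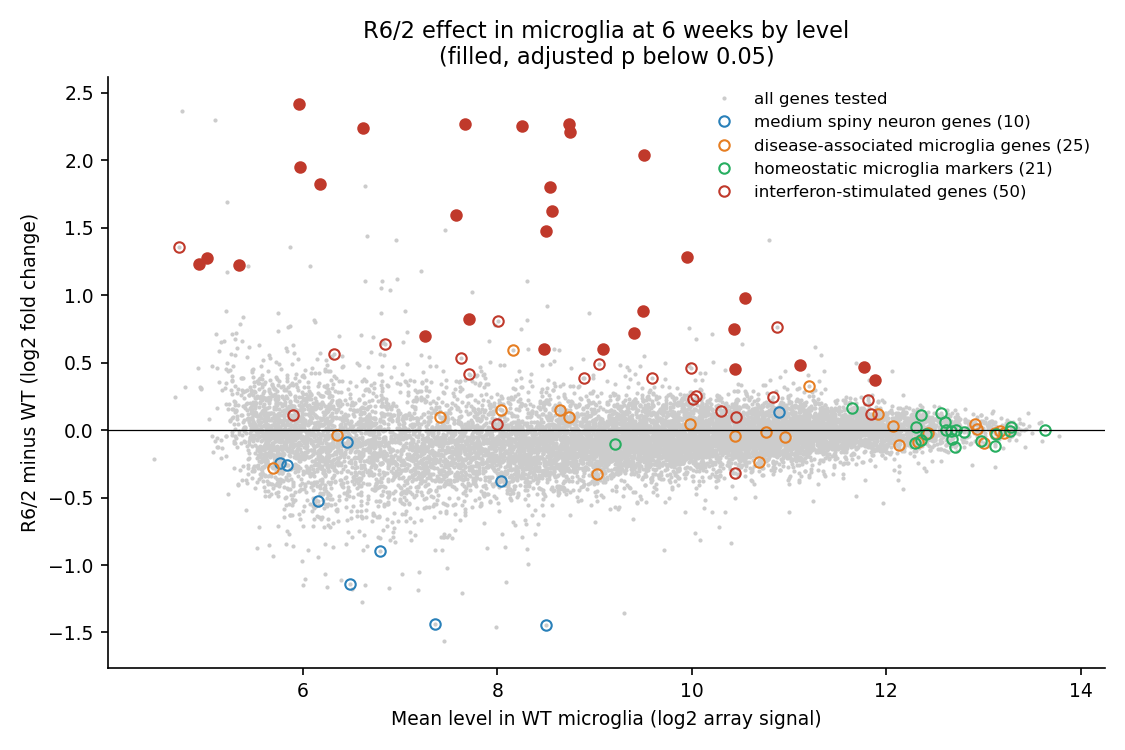
Log2 fold change (R6/2 minus WT) of each of the 11958 genes tested (grey) against its mean log2 signal in WT microglia, with 4 gene lists in colour, filled where the adjusted p is below 0.05. The 29 filled points of the list of interferon-stimulated genes all lie above 0, and no homeostatic, disease-associated or medium spiny neuron gene is filled.

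Within the signalling cascade Irf7, Irf9 and Stat2 rose, and the other 15 tested members were not called. Of 18 tested genes of interferon receptors and signalling 3 rose, none fell, and the median was -0.03. Irf7, the transcription factor that amplifies interferon production, measured 8.02, 8.38, 8.67, 8.75 and 8.42 in R6/2 and 6.40, 6.36, 6.76, 6.93 and 6.74 in WT microglia, and rose by 1.81 ± 0.16. Stat2 and Irf9, the pair that binds the element shown above, rose by 0.58 ± 0.10 and 0.75 ± 0.09. Irf9 measured 10.53 to 10.86 in R6/2 and 9.82 to 10.08 in WT microglia. The receptor genes Ifnar1 and Ifnar2 differed by -0.10 each, with 95% intervals of -0.29 to 0.10 and -0.28 to 0.09. Jak1 differed by -0.07 (-0.21 to 0.07) and Tyk2 by -0.04 (-0.32 to 0.24). Of the members with the brightest probe sets, Irf8 (-0.02), Socs3 (0.17), Irf1 (-0.07) and Ifngr1 (-0.13) did not pass the test.

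Among 21 nucleic acid sensors and their adaptors 3 rose, none fell, and the median was 0.01. Zbp1, a sensor of Z-form nucleic acid that can start necroptosis, measured 8.07, 7.55, 8.06, 8.50 and 8.32 in R6/2 and 6.62, 6.50, 6.53, 6.93 and 6.72 in WT microglia. It rose by 1.44 ± 0.18, and its groups did not overlap. Dhx58 (LGP2) and Ddx58 (RIG-I), cytoplasmic RNA helicases, rose by 1.11 ± 0.13 and 0.60 ± 0.08. The probe sets of Dhx58 differed in direction, the negative one (-0.05) at a mean of 3.37, under the level filter. With the mean of its probe sets Dhx58 was not called. Ifih1 (MDA5), the third member of this helicase family, had 0.35 (0.15 to 0.56) at an adjusted p of 0.191. The DNA-sensing pair Cgas (0.08) and Sting1 (-0.04) and the endosomal receptors Tlr3 (0.11) and Tlr7 (0.05) did not pass the test, and their 95% intervals lay within -0.20 and 0.23.

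No interferon gene was called. Of the 8 ligand genes with a probe set, 2 lay above the level filter, Ifng (6.97 ± 0.73 in R6/2 and 6.68 ± 0.77 in WT microglia) and Ifna1 (5.89 ± 0.18 in R6/2 and 5.73 ± 0.28 in WT microglia; SD, n = 5 each). Ifnb1 lay below the filter, at 4.14, 4.63, 4.87, 5.16 and 5.10 in R6/2 and 4.21, 4.61, 4.74, 4.53 and 5.04 in WT microglia, with overlapping groups. Of 15 genes of class I antigen presentation, which interferons also induce, only Nlrc5 rose, the transactivator of the class I genes (1.48 ± 0.25). Nlrc5 measured 8.58 to 9.26 in R6/2 and 6.82 to 7.87 in WT microglia. The class I genes it controls were at B2m 0.04 and H2-K1 -0.02, and the list median was 0.04. None of 9 class II genes was called by limma (median -0.15), and 2 had an unadjusted p below 0.05.

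Besides the interferon and class I lists, 10 called genes were BC147527, Gbp6, Gm4951, H3c4, Helz2, Ifi213, Rnf213, Sdc3, Spon1 and Tsga10. Gbp6, Gm4951 (a GTPase gene of the interferon-inducible kind) and Ifi213 belong to families of interferon-induced genes that the lists did not name. Helz2, a nuclear helicase, rose by 1.41 ± 0.20, and Rnf213, a large ubiquitin ligase, by 0.55 ± 0.08. The histone gene H3c4 rose by 1.11 ± 0.21, with 7.40 to 8.27 in R6/2 and 6.18 to 7.28 in WT microglia. Sdc3, a cell-surface proteoglycan, measured 8.42, 8.75, 8.83, 8.99 and 8.77 in R6/2 and 8.18, 7.85, 7.79, 8.02 and 8.03 in WT microglia and rose by 0.78 ± 0.15. Spon1, a secreted matrix protein, measured 8.37, 8.73, 8.58, 9.35 and 8.82 in R6/2 and 7.83, 7.79, 7.70, 7.42 and 7.99 in WT microglia and rose by 1.02 ± 0.21. The groups of Sdc3 and of Spon1 did not overlap, but the call of Sdc3 was lost in 7 of 24 other settings and that of Spon1 in 8 of 23. The probe sets of Spon1 differed in direction, the negative one (-0.06) at a mean of 4.01, under the level filter. Tsga10, a testis-expressed gene, rose by 0.46 ± 0.09.

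No gene of the homeostatic programme was called, and none of its 21 tested markers had an unadjusted p below 0.05 in limma. The 21 homeostatic markers had log2 fold changes between -0.12 and 0.17 (median -0.01). Csf1r, the receptor that microglia need for survival, averaged 13.63 ± 0.04 in R6/2 and 13.63 ± 0.05 in WT microglia (SD, n = 5 each). Its 95% interval was -0.15 to 0.15. Tmem119, a microglial membrane protein, differed by -0.03 (-0.17 to 0.11), and the sialic-acid receptor Siglech and the matrix protein Sparc by 0.03 and -0.01. The mean level of the list lay between 12.47 and 12.58 in all 10 samples.

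Disease-associated genes were not called at this age either. Of 25 tested members none was called by limma and 2 had an unadjusted p below 0.05, with a median of -0.01. The mean level of the list was 10.62 ± 0.06 in R6/2 and 10.61 ± 0.14 in WT microglia (SD, n = 5 each). Axl, a receptor for dying cells, had the largest value (0.59, 95% interval 0.12 to 1.07, adjusted p of 0.431), with 8.44 to 8.94 in R6/2 and 7.57 to 8.80 in WT microglia. Apoe, the lipid carrier, had 0.33 (0.02 to 0.64), with 11.33 to 11.64 in R6/2 and 10.98 to 11.36 in WT microglia. The groups overlapped in Axl and, by 1 WT sample, in Apoe.

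Other inflammatory lists had no called member. They were 22 cytokine and NF-kB genes (median -0.12), 14 chemokine genes (-0.01), 11 complement genes (0.02), 18 phagocytic and Fc receptors (0.01), 24 lysosome genes (-0.07) and 19 myeloid transcription factors (0.05). In the order of these lists, 2, 1, 0, 2, 2 and 3 members had an unadjusted p below 0.05 in limma. Il6 had the largest value of the cytokines (0.75, adjusted p of 0.233). Ccl2, a monocyte-attracting chemokine, measured 11.29, 11.28, 11.08, 11.09 and 11.26 in R6/2 and 11.64, 11.82, 11.66, 11.55 and 11.77 in WT microglia. Its groups did not overlap, but its difference of -0.49 ± 0.17 had an adjusted p of 0.405. Negative values were frequent in other lists that had no call in the fit of microglia alone. They were found in 17 of 20 cholesterol synthesis genes (median -0.15), 14 of 15 proliferation genes (-0.25), 19 of 20 respiratory chain genes (-0.10) and 14 of 18 heat shock and unfolded protein response genes (-0.14), against 7609 of 11958 genes tested. In limma, 5, 3, 1 and 6 members of these lists had an unadjusted p below 0.05, against 1104 of all genes tested. When astrocytes and the negative fraction entered the fit, the most negative member of the proliferation list and that of the heat shock list were called lower (limma, adjusted p of 0.0468 and 0.0178). At 12 weeks 5 of the 18 heat shock and unfolded protein response genes fell, and none of the other 3 lists had a lower call.

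The 3 genes that fell were Hpca, Ctxn1 and Parvb. Hpca, a neuronal calcium sensor, measured 5.80, 5.67, 5.83, 6.66 and 5.48 in R6/2 and 6.46, 7.85, 8.21, 7.59 and 7.14 in WT microglia, a log2 fold change of -1.56 ± 0.32. R6/2 sample 9 lay above WT sample 1, so its groups overlapped. Ctxn1, a neuronal membrane protein, measured 6.71, 6.49, 6.31, 7.23 and 5.94 in R6/2 and 7.34, 8.29, 8.45, 8.10 and 7.77 in WT microglia and fell by 1.46 on the log2 scale. Parvb, a focal adhesion protein, measured 6.41 to 6.74 in R6/2 and 6.96 to 7.60 in WT microglia and differed by -0.66 ± 0.14. Its call was lost in 17 of the 23 other settings that tested it, and that of Hpca in 10. The call of Ctxn1 was lost in 1, the omission of WT samples 2 and 3. The next by p, Pank1 (-0.42) and Ly6g6e (-0.75), each had an adjusted p of 0.053.

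Most medium spiny neuron genes had negative values, without a call in the fit of microglia alone. The 10 tested genes of medium spiny neurons, the main neurons of the striatum, had a median of -0.45, and 9 of the 10 were negative. In that fit none was called by limma and 5 had an unadjusted p below 0.05. Of 9 pan-neuronal markers 4 were positive and 5 negative (median -0.19), with none called by limma and 3 at an unadjusted p below 0.05. Scn4b (-1.44 ± 0.34), a sodium channel subunit, and Arpp21 (-1.45 ± 0.36), a neuronal phosphoprotein, were the most negative. In the fit that also held astrocytes and the negative fraction, both were called lower (limma, adjusted p of 0.0210 and 0.0188). In all, 3 genes of the medium spiny and pan-neuronal lists were called lower there. The mean level of the medium spiny neuron list was 5.94, 5.75, 5.87, 6.11 and 5.81 in R6/2 and 5.91, 6.80, 6.91, 6.28 and 6.08 in WT microglia. WT samples 2 and 3 stood highest, and WT sample 1 lay among the R6/2 samples. In a sorted fraction, fewer neurons or fragments carried along and less RNA in each of them cannot be told apart. Without WT samples 2 and 3, 37 genes were called higher and 1 lower, and Ctxn1, Hpca and Parvb all lost their calls. Oligodendrocyte markers ran from 6.95 to 9.11 in R6/2 and from 7.87 to 9.03 in WT microglia (11 tested, median -0.32), and astrocyte markers from 7.85 to 8.82 in R6/2 and from 8.19 to 8.71 in WT microglia (14 tested, median -0.23). None of either list was called by limma, and 0 and 1 had an unadjusted p below 0.05. Their part in the results was not tested beyond a covariate. With the medium spiny neuron genes as a covariate, 40 genes were called higher, 23 of them on the list of interferon-stimulated genes, against 46 and 29 without it. With pan-neuronal, oligodendrocyte and astrocyte markers as a covariate, 51, 51 and 47 genes were called higher.

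**Figure D3:**
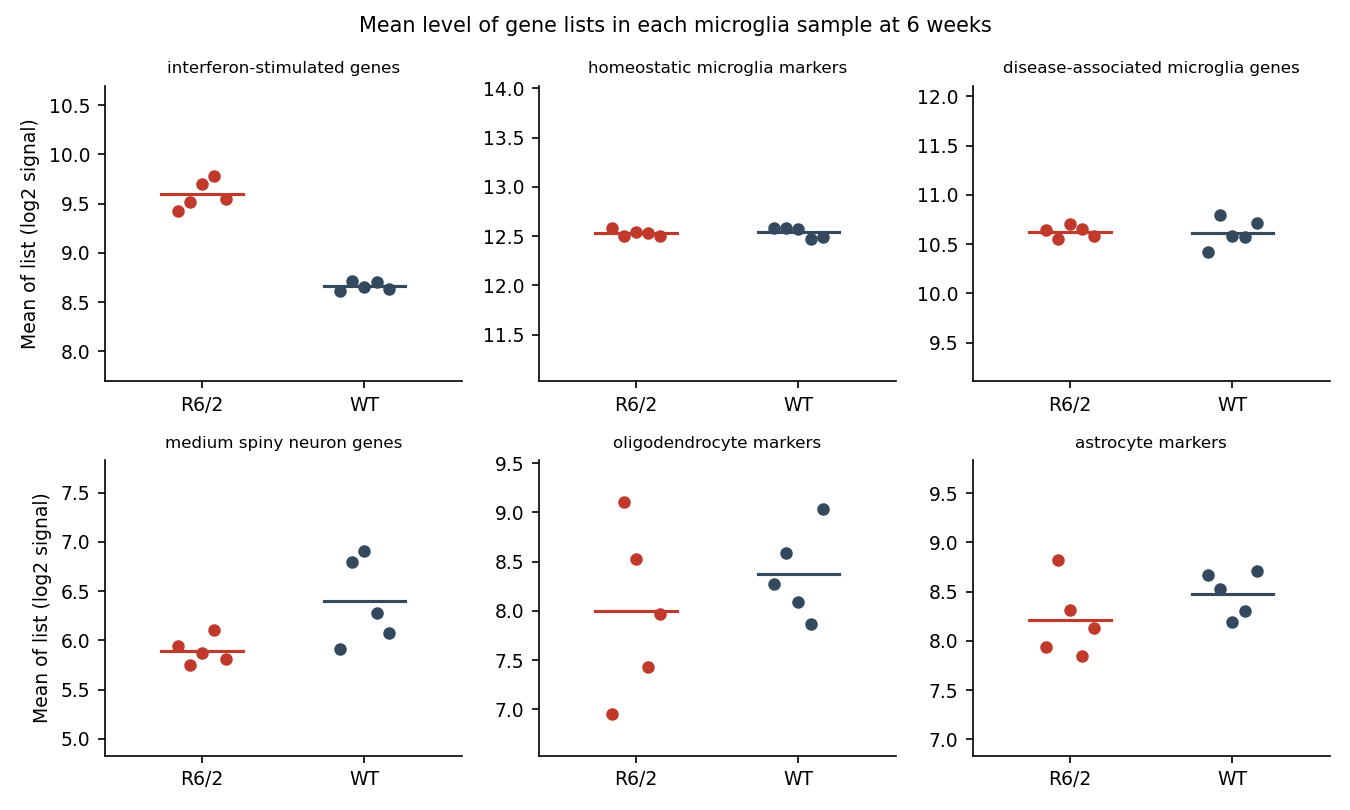
Mean log2 signal of 6 gene lists in each microglia sample at 6 weeks, with 5 R6/2 samples at the left and 5 WT samples at the right of each panel, bars at the group means, and 3 log2 units on every vertical axis. The groups are apart for interferon-stimulated genes (9.43 to 9.78 in R6/2, 8.61 to 8.71 in WT), and overlap in the other 5 panels.

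The number of lower genes depended on the samples and the model. It was 13 without WT sample 5, 9 without WT sample 1, 6 without R6/2 sample 7 or 9 and 5 without R6/2 sample 6. When astrocytes and the negative fraction entered the same fit, 103 genes were called lower in R6/2 microglia. Both fits hold the same microglia arrays, so a gene has the same log2 fold change in either. Only its estimate of spread and the set of genes tested differ. Of the 103, 92 were also tested in the fit of microglia alone, where 3 were called. All 92 had an unadjusted p below 0.05 in limma there. Their negative sign was fixed in advance, so the 92 are no second support. Over all 103 genes, the median log2 fold change in the fit of 3 fractions was -0.53. In the same fit 52 genes were called higher, 31 of them among the 46.

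At 12 weeks, in other mice, the interferon-stimulated genes were again higher in R6/2 microglia, with 44 of the 50 tested members called, and so were 14 of the 25 disease-associated genes. In all, 301 genes (2.52%) rose and 426 (3.56%) fell in R6/2 microglia at that age. The 46 genes called higher at 6 weeks were all called higher at 12 weeks, where they made up 15.3% of the 301. Their median log2 fold change was 2.12 at 12 weeks, and 44 of them had a larger value there. The 2 ages share an estimate of each gene's spread but no samples. The difference between ages was called for 30 genes (0.251%), 24 of them with a larger value at 12 weeks (0.201%), and 5 of these 24 were among the 46. Oas1a measured 11.65 ± 0.19 in R6/2 and 8.45 ± 0.31 in WT microglia at 12 weeks (SD, n = 6 and 5). Its difference between ages was 1.40 ± 0.20, with an adjusted p of 0.00129. Slfn2, a gene of the interferon-induced Schlafen family, had a difference of 1.37 ± 0.20 and Sp100, a nuclear body protein, one of 0.98 ± 0.18.

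The 19 other genes with a larger value at 12 weeks had not been called at 6 weeks, and 8 of them were on the list of disease-associated genes. Cst7, an inhibitor of lysosomal proteases, averaged 10.78 ± 0.30 in R6/2 and 8.01 ± 0.48 in WT microglia at 12 weeks (SD, n = 6 and 5). At 6 weeks it measured 7.47, 7.25, 8.17, 7.54 and 7.12 in R6/2 and 7.56, 7.67, 7.22, 7.35 and 7.26 in WT microglia, with overlapping groups. The difference between the effects was 2.68 ± 0.30, with an adjusted p of 0.000237. Ch25h, the enzyme of 25-hydroxycholesterol synthesis, had an effect of 3.17 ± 0.31 at 12 weeks and -0.04 ± 0.32 at 6 weeks. Clec7a, a receptor for beta-glucans, had 1.84 ± 0.17 at 12 weeks and 0.05 ± 0.18 at 6 weeks. Slc2a6, a hexose transporter, had 1.71 ± 0.16 at 12 weeks and -0.04 ± 0.17 at 6 weeks. Anxa5, which binds phosphatidylserine, had 0.80 ± 0.09 at 12 weeks and -0.14 ± 0.09 at 6 weeks. Nrarp, a target of Notch signalling, had -1.47 ± 0.15 at 12 weeks and -0.06 ± 0.16 at 6 weeks, and Slc1a4, an amino acid transporter, -1.26 ± 0.14 at 12 weeks and -0.11 ± 0.14 at 6 weeks.

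**Figure D4:**
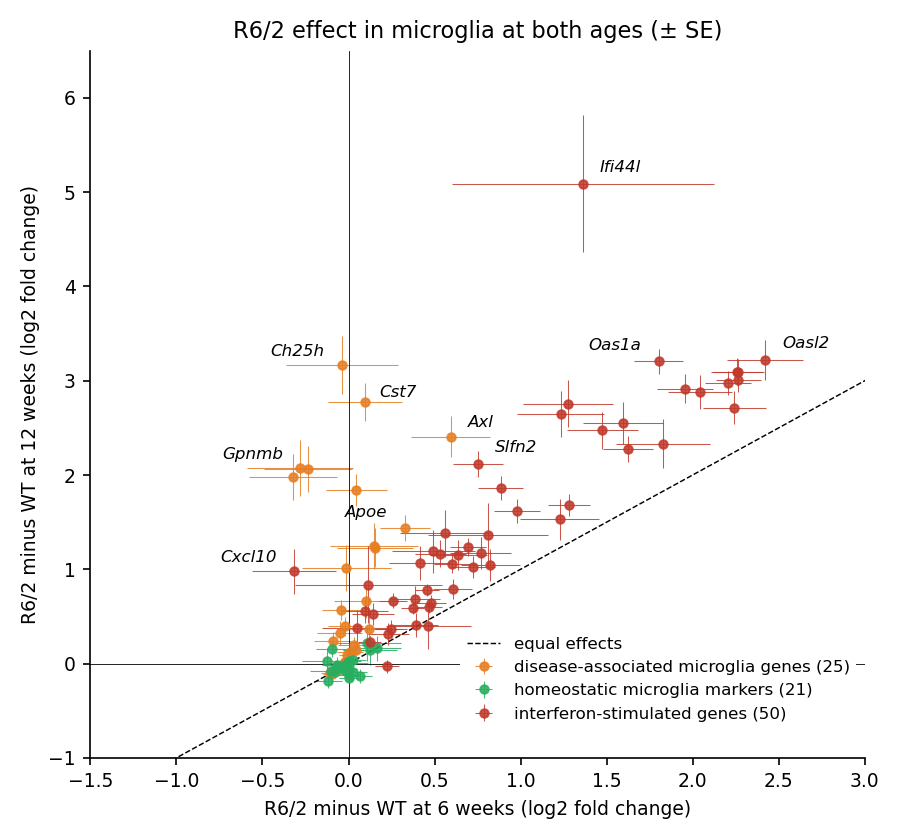
Log2 fold change (R6/2 minus WT) at 12 weeks against that at 6 weeks, with standard errors, for the tested members of 3 lists; the dashed line marks equal effects. Interferon-stimulated genes are spread along and mostly above the line, disease-associated genes such as Ch25h and Cst7 rise along the vertical axis from about 0 at 6 weeks, and homeostatic markers gather around 0 at both ages.

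The response was then set beside that of the other fractions sorted from the striatum at 6 weeks. Over the list of interferon-stimulated genes, 42 of which were tested in a fit of the 3 fractions, 18 rose in microglia (median 0.62), 14 in astrocytes (median 0.60) and 7 in the negative fraction (median 0.28), and none fell in astrocytes or the negative fraction. Of all genes tested 1.07% rose in astrocytes and 1.71% in the negative fraction. The 46 genes were chosen by their call in these same microglia samples, so their values in microglia, and how these compare with the other fractions, are a description that supports no contrast. Of the 46 genes 39 were tested in that fit. In R6/2 astrocytes 12 of the 39 rose, 35 were positive and their median was 0.48. In the R6/2 negative fraction 7 of the 39 rose, 33 were positive and their median was 0.34. The effect in microglia differed from that in astrocytes in 42 genes (0.340%), 13 of them with a higher value in microglia (0.105%), 7 of which were among the 39. It differed from that in the negative fraction in 182 genes (1.47%), 31 of them with a higher value in microglia (0.251%), 12 of which were among the 39. The difference of effects was called for 5 of the 42 interferon-stimulated genes between microglia and astrocytes, 4 higher and 1 lower in microglia, and for 9 between microglia and the negative fraction, all higher in microglia. When a sample number was left out of every fraction, the 182 became 57 (WT 4), 82 (WT 2), 114 (WT 3), 89 (R6/2 8), 106 (R6/2 9) and 103 (R6/2 10), and the 42 genes that differed from astrocytes became 24 (R6/2 10) and 28 (WT 4, and likewise R6/2 8).

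Ifit2 and Zbp1 were examples of a response larger in microglia than in either other fraction. Ifit2 measured 7.84, 8.35, 8.65, 8.11 and 8.08 in R6/2 astrocytes and 8.21, 8.24, 7.59, 7.96 and 7.94 in WT astrocytes, with overlapping groups. In the negative fraction it measured 9.66, 9.47, 9.59, 9.70 and 9.45 in R6/2 and 9.12, 9.17, 9.26, 9.10 and 9.23 in WT samples. The groups there did not overlap, but the effect of 0.40 ± 0.14 had an adjusted p of 0.14. The effect in microglia was larger by 2.05 ± 0.19 than in astrocytes and by 1.87 ± 0.19 than in the negative fraction (adjusted p of 5.17e-07 and 1.83e-06). Zbp1 had effects of -0.02 in astrocytes and -0.03 in the negative fraction, and lay at 5.05 to 5.37 in R6/2 and 4.48 to 5.56 in WT astrocytes, a low level. The differences of its effect were 1.47 ± 0.25 in both cases. Oas2 (1.84 ± 0.26) and Ifit3 (1.91 ± 0.29) were larger in microglia than in astrocytes, Rtp4 was larger by 1.69 ± 0.29 than in the negative fraction, and Sdc3, which had -0.33 in astrocytes, was larger in microglia by 1.11 ± 0.20.

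Usp18, Oasl2 and Ifit1 rose in astrocytes too, and for them the difference between fractions was not called. Usp18 measured 8.46, 9.30, 8.89, 9.01 and 8.79 in R6/2 and 6.36, 6.55, 7.03, 6.42 and 6.49 in WT astrocytes. Its effect there was 2.32 ± 0.18, and the difference from microglia was -0.07 ± 0.25. Oasl2 and Ifit1 had effects of 2.58 ± 0.27 and 2.39 ± 0.30 in astrocytes, with differences from microglia of -0.16 ± 0.39 and -0.15 ± 0.43. A p that misses the threshold does not show that these effects were equal. Cxcl10 went the other way, with an effect of -0.32 ± 0.19 in microglia, where its level was high, and 1.46 ± 0.19 in astrocytes at a low level (6.72 in R6/2, 5.26 in WT), and the difference of -1.78 ± 0.26 was called. Polr2a, the largest subunit of RNA polymerase II, had -0.10 ± 0.08 in microglia, 0.88 ± 0.08 in astrocytes and 0.71 ± 0.08 in the negative fraction. Mmp2, a matrix protease, and Atp8a2, a lipid flippase, likewise had -0.07 ± 0.25 and -0.18 ± 0.20 in microglia and 2.21 ± 0.25 and 1.56 ± 0.20 in astrocytes. Slc7a8, an amino acid transporter, had -0.10 ± 0.13 in microglia and 1.20 ± 0.13 in astrocytes. Against the negative fraction the called differences below 0 with the smallest p were those of Eya4 (-1.86 ± 0.17), Olfm1 (-1.30 ± 0.18), Srgap3 (-0.91 ± 0.13) and Pkm (-0.52 ± 0.07).

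**Figure D5:**
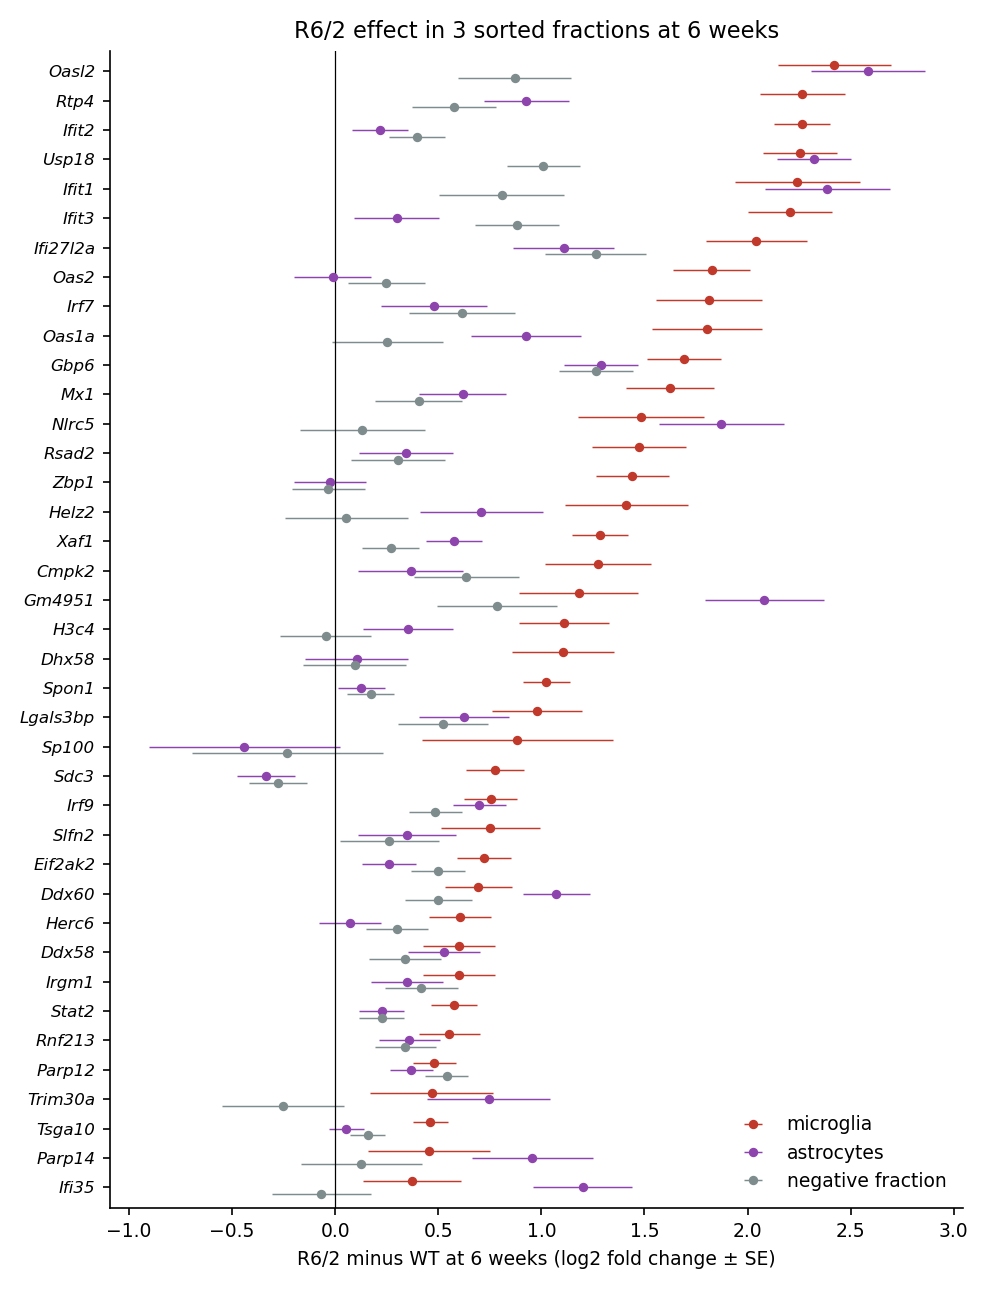
Log2 fold change (R6/2 minus WT, with standard error) at 6 weeks in microglia, astrocytes and the negative fraction, for the 39 genes called higher in microglia that were tested in all 3 fractions. The genes were chosen by their call in microglia, which fixes the sign of the microglial values; 12 of them rose in astrocytes and 7 in the negative fraction.

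In zQ175 microglia few of the same genes were called at either age. Of the 46 genes 45 were tested there. At 6 months limma called none of them (of all genes tested it called 1, 0.00820%, and 471 had an unadjusted p below 0.05), 11 were positive and the median was -0.08. At 12 months 2 of the 45 rose, Usp18 (0.73) and Ifit2 (0.84), where 2.80% of all genes tested rose. At that age 36 of the 45 were positive and the median was 0.46, against -0.02 over all genes tested. The ages and the models differ, so no test of the difference from R6/2 microglia was made.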

How the data were processed

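The values are log2 signals of Affymetrix mouse arrays that the authors deposited; affy, RMA and limma are named without versions or settings in the submitters' processing notes. Genes were named through the array annotation: 34958 of 45101 probe sets had 1 symbol, 932 several and 9211 none, and 57 members of the 35 gene lists had no probe set here and were not analysed. Each gene was represented by its probe set with the highest mean over all arrays, and genes under the 40th percentile of mean level (5.43) were not tested. Group means of R6/2 and WT microglia at 6 and 12 weeks (21 arrays) were fitted in limma 3.58.1 (R 4.3.3) with lmFit and eBayes, with Benjamini-Hochberg adjustment over all genes tested, and calls were made below 0.05. The difference between ages was a contrast of that fit. Differences between fractions came from a fit of the 30 arrays at 6 weeks, and zQ175 microglia had a fit of their own. Intervals are 95%. Arrays give no counts, so their number limits the precision. The scripts were tested on simulated data.

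The members and the lists were chosen with earlier results of these data known. The text names the 15 largest rises, the 5 lower genes of smallest p, the called interferon genes of smallest p, the members with the brightest probe sets of the interferon and homeostatic lists, the called signalling, sensor and class I genes, and the 5 genes of smallest p in each direction of each difference. Named after their values were seen were Apoe, Arpp21, Axl, B2m, BC147527, Ccl2, Cgas, Cmpk2, Ddx60, Eif2ak2, Gm4951, H2-K1, H3c4, Helz2, Ido1, Ifi44l, Ifih1, Ifitm3, Ifnar1, Ifnar2, Ifnb1, Il6, Irgm1, Jak1, Oas1b, Oas3, Oasl1, Rnf213, Rsad2, Scn4b, Slfn2, Sp100, Spon1, Tsga10, Tyk2, Xist and the remaining genes of the closing section. Samples of the same number in different fractions correlated in their deviations from the group means at 0 to 0.27 (astrocytes) and 0.04 to 0.17 (negative fraction) and were not treated as pairs.

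Alternatives were the mean of a gene's probe sets, no or a stricter level filter, arrays at 6 weeks alone, 2 other scalings, a variance trend, marker levels as covariates, and leaving out each sample. The fit of 3 fractions for the microglial effect, 2 neuronal covariates and the omission of WT samples 2 and 3 were added after the data were seen.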

Additional observations from a re-analysis of the deposited data

Results flagged for a closer look

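In 4 of 98 groups of 5 samples tested, 1 sample stood apart from the others of its group by Dixon's criterion, which chance does in about 1 in 20 groups. They were Ifi213 in WT sample 5 (5.41), Ifit2 in WT sample 1 (7.25), Parp12 in WT sample 4 (11.04) and Xaf1 in WT sample 1 (9.65), all in microglia at 6 weeks.

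The R6/2 effect in microglia differed between the ages in 30 genes, by limma's test of the difference (12 weeks minus 6 weeks, log2). Of the genes with a larger value at 12 weeks, 8 were on the list of disease-associated genes. They and some genes not on that list were Cst7 (2.68), Ch25h (3.20), Clec7a (1.80), Lpl (2.30), Igf1 (2.30), Gpnmb (2.35), Axl (1.81), Apoe (1.11), Apoc1 (2.50), Ctse (1.95), Capg (0.88), Anxa5 (0.94) and Slc2a6 (1.75). Genes already called at 6 weeks were Oas1a (1.40), Slfn2 (1.37), Gm4951 (1.67), Sp100 (0.98) and H3c4 (1.52). The other positive differences were those of Bcar3 (2.22), St14 (1.23), Per3 (1.05), Tmem205 (1.04), H2bc22 (0.77) and Pank1 (0.67). Negative differences were those of Klra7 (-1.49), Nrarp (-1.41), Plppr4 (-1.35), Slc1a4 (-1.15), Sema6d (-0.77) and Fem1b (-0.44).

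The R6/2 effect at 6 weeks also differed between fractions by a test of the difference. Microglia minus astrocytes gave Ifit2 2.05, Ifit3 1.91, Oas2 1.84, Zbp1 1.47 and Sdc3 1.11, and on the negative side Mmp2 -2.28, Cxcl10 -1.78, Atp8a2 -1.75, Slc7a8 -1.30 and Polr2a -0.98. Microglia minus the negative fraction gave Ifit2 1.87, Rtp4 1.69, Oas2 1.58, Zbp1 1.47 and Sdc3 1.05, and on the negative side Eya4 -1.86, Olfm1 -1.30, Srgap3 -0.91, Polr2a -0.80 and Pkm -0.52.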

How the results depend on the processing

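The count of genes higher in R6/2 microglia stayed between 37 and 52 in all 24 alternatives (40 to 48 when 1 sample was left out), and no named gene changed sign in a called value; 23 of the 49 called genes kept their call in every alternative that tested them. The count of lower genes moved from 3 to 5 with the mean of probe sets, with no level filter, with quantile normalization and with oligodendrocyte markers as a covariate, to 6 with the arrays at 6 weeks alone and with pan-neuronal or medium spiny neuron genes as a covariate, to 7 with a Y-linked covariate, to 103 in the fit of 3 fractions and to 1 without WT samples 2 and 3; leaving out 1 sample gave 2 to 13. In the fit of 3 fractions 155 genes were called in all, and 18 interferon-stimulated genes, of which that fit tested 42. The cause was not tested. The difference between ages was called for 23 to 33 genes without 1 sample. The difference from astrocytes was called for 59 genes with no level filter, for 61 with the replicate number as a block and for 24 to 57 without 1 number; that from the negative fraction for 152, 231 and 57 to 168. Of 10 samples, 6 correlated best with their own number in astrocytes and 5 in the negative fraction, and WT number 3 was low in Xist in all 3 fractions, a hint on the numbers from the data and not from the design. Signal near background limits what can be seen of genes under the level filter, which were not tested.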

Other observations

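Ifi44l, an interferon-stimulated gene, measured 6.04, 6.86, 7.73, 2.73 and 7.06 in R6/2 microglia and 5.78, 5.70, 2.84, 4.54 and 4.76 in WT microglia at 6 weeks. R6/2 sample 9, the highest of its group for most called genes, was the lowest for Ifi44l, and the difference of 1.36 ± 0.76 (SE) had an adjusted p of 0.618 in limma. At 12 weeks its difference was 5.09 ± 0.73.

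Ido1, the enzyme that starts tryptophan breakdown and an interferon-induced gene in many cells, lay below the level filter and was not tested. It measured 4.21, 4.18, 4.07, 4.59 and 4.04 in R6/2 microglia and 5.05, 5.19, 5.50, 7.01 and 5.01 in WT microglia at 6 weeks, so that every R6/2 sample was below every WT sample. The same held for 235 (1.97%) of the 11958 genes tested, and the share among genes under the filter was not counted. All R6/2 values of Ido1 lay under the filter, and the gene was picked after its values were seen, so no fall is claimed.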
